A study of Mus musculus with 9 samples.

Results

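The 10 genes described here encode immunoglobulin-domain adhesion molecules that olfactory axons carry: Kirrel2 and Kirrel3, Ncam1 and Ncam2, the contactins Cntn1 and Cntn4, and the L1 family members L1cam, Chl1, Nrcam and Nfasc. They were taken by symbol, and all 10 were found among the 21909 gene symbols of the expression tables, each with 1 row per library. Poly-A RNA was taken from sorted cells of the main olfactory epithelium at an age of 4 weeks. The anti-CD54-PE positive cells (HBC, horizontal basal cells, the reserve stem cells of the epithelium) were stained with an antibody to the product of Icam1. Neurog1-EGFP positive cells (GBC, globose basal cells, the neuronal progenitors) carry a fluorescent reporter of the proneural gene Neurog1. OMP-ires-EGFP positive cells (mOSN, mature olfactory sensory neurons) carry the same fluorescent protein behind Omp, the gene of olfactory marker protein. There was 1 library for each population, which leaves every difference below without a replicate check or a test. A ScriptSeq kit was used for HBC and an Illumina mRNA kit for GBC and mOSN, and therefore kit and population cannot be told apart wherever HBC is one side of a comparison. The study's 3 antibody pull-downs of 5-hydroxymethylcytosine and 3 of 5-methylcytosine were not analysed here.

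An olfactory sensory neuron sends 1 axon to a glomerulus of the olfactory bulb, where it meets the axons of other neurons that express the same odorant receptor. Part of this sorting depends on adhesion molecules whose level follows the activity of the receptor, and part on molecules that follow the zone of the epithelium in which the neuron lies. Kirrel2 and Kirrel3 bind homophilically and are known to be expressed in complementary sets of glomeruli, Cntn4 (also called BIG-2) marks other sets, and Ncam2 (OCAM) marks the axons of the ventral zones. Ncam1, L1cam, Nrcam, Chl1, Nfasc and Cntn1 act more broadly in axon growth, bundling and the assembly of axonal domains. An average over a sorted population cannot show which neurons carry which molecule, and fewer cells of a type and less RNA per cell cannot be told apart in it.

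The stretch just upstream of the transcription start was examined for CpG dinucleotides, the sites of the cytosine modifications the series is about. RefSeq promoter windows (GRCm38.p6) were matched by symbol for 8 of the 10 genes, all but Kirrel3 and Ncam1. The windows of Cntn4 lie 441133 and 441310 bases inside the annotated gene, those of Nfasc at least 34522 bases inside it and 2 of the 3 of Cntn1 76976 and 110205 bases inside it, and these concern internal starts. For 3 genes the 250 bases before the start are printed 5′ to 3′, with every CpG in capitals and coordinates of GRCm38.p6. Kirrel2 (minus strand, chr7:30457516-30457765) and Ncam2 (plus strand, chr16:81200447-81200696) were both higher at each later stage, Ncam2 by less than 2-fold between GBC and mOSN. Nrcam (plus strand, chr12:44328635-44328884) was highest in HBC.
Kirrel2: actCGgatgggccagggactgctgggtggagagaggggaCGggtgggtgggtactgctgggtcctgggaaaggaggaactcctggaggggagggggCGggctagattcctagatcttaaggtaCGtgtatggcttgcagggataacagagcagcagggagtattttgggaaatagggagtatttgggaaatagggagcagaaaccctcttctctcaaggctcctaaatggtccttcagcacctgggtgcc
Ncam2: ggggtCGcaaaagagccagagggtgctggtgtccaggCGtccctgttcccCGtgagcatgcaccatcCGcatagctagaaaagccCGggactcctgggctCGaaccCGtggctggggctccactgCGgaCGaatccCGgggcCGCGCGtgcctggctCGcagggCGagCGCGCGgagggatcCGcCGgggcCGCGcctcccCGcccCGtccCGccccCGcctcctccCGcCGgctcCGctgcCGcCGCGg
Nrcam: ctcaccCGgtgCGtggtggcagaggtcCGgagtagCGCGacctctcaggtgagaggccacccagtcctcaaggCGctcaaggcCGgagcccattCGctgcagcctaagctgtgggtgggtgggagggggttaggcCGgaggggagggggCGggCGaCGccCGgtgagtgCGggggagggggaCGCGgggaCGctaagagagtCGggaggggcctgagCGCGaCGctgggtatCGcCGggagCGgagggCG
The Kirrel2 stretch held 4 CpG, against 32 in Ncam2 and 25 in Nrcam. The median over all 32851 RefSeq windows was 6, and these counts stood at the 41.1, 95.7 and 89.9 percentile. Each of the 3 stretches holds the GC box GGGCGG on at least 1 strand, as do 32.7% of all windows. Counted by gene, it was found for 5 of the 8 genes (for Nfasc only in an internal window), against 35.4% of all genes with a window. On both strands, the Ebf motif CCCNNGGG was found for 1 of the 8 genes (Chl1), against 13.4% of all genes with a window. The homeodomain motif TAATTA was found for 1 (an internal Cntn4 window), against 5.65%, and the cAMP response element TGACGTCA for none, against 1.77%. The nonamer TTCAGCACC, the left part of the recognition element of the neuronal repressor REST, was searched only after the Kirrel2 sequence had been seen. It starts 17 bases before the Kirrel2 start, in no other member's window, and in 0.301% of all windows. A match in these letters is a description of the sequence, not of binding.

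The levels were given by the authors as FPKM, fragments scaled to transcript length and library size, with an interval from the Cufflinks software that does not cover the spread between samples. The number of fragments behind a value can be read from the width of that interval. These implied fragments summed to between 16515790 and 18123310 per library. The sort genes followed the labels, with Icam1 at 136 FPKM in HBC against 0.0456 and 0.349 FPKM in GBC and mOSN. Neurog1 had 0.0538, 163 and 0.0189 FPKM in HBC, GBC and mOSN, and Omp had 71.6, 427 and 1487 FPKM. Omp was thus present in all 3 libraries. Macrophage markers summed to 4425 FPKM in HBC, with all 10 at 1 FPKM or more, against 4.96 in GBC and 3.42 in mOSN.

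Summed over the 10 adhesion genes, the HBC level was 26.0 FPKM, the GBC level 352 FPKM and the mOSN level 725 FPKM, that is 0.0153%, 0.191% and 0.304% of each library's summed FPKM. The make-up of this sum differed between the populations. In HBC the L1 family held 53.1% of it, in GBC the Ncam pair held 46.3%, and in mOSN the contactins held 37.8% and the Kirrel pair 36.4%. Kirrel2 and Cntn4 together made 26.6% of the sum in HBC and 38.8% in GBC, and their share reached 70.3% in mOSN. A level of 1 FPKM was reached by 5 of the genes in HBC, by 9 in GBC and by 9 in mOSN, and Chl1 was below it in all 3 libraries. FPKM is scaled to transcript length, but 1 FPKM of a gene did not stand for a fixed number of implied fragments. For Chl1 the number was 485 in HBC, against 149 and 155 in GBC and mOSN, and for Cntn4 it was 198 in HBC, against 92.7 and 102 in GBC and mOSN. Levels of different genes are therefore set side by side with this limit.

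**Figure D1:**
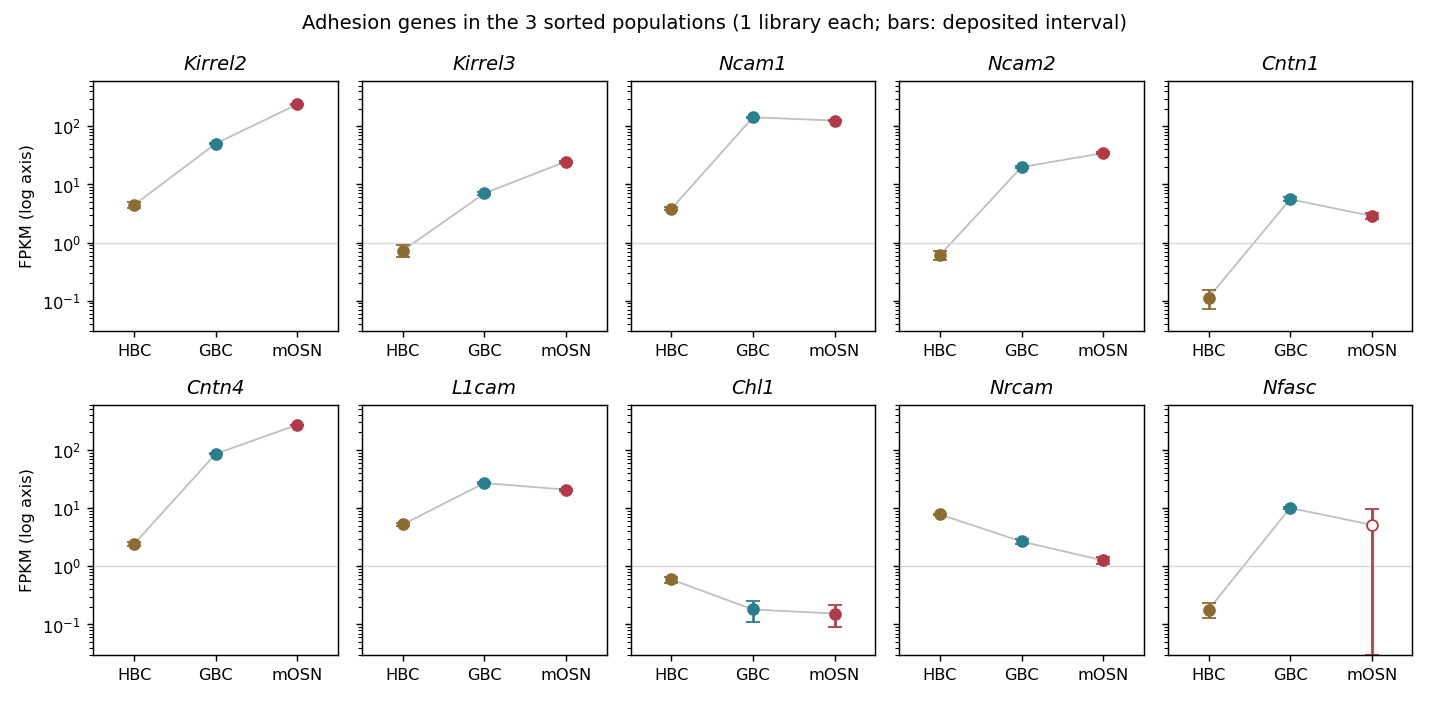
FPKM on a log axis (y) of each of the 10 adhesion genes in the HBC, GBC and mOSN libraries (x), 1 library each; bars are the deposited interval and the open symbol is the mOSN value of Nfasc, whose status was FAIL and whose bar runs to 0. Kirrel2, Kirrel3, Ncam2 and Cntn4 stand highest in mOSN, Ncam1, Cntn1, L1cam and Nfasc in GBC, and Chl1 and Nrcam in HBC.

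Kirrel2 (in mm9, the build of all gene positions that follow, chr7:31232785-31242534), one of the activity-dependent pair, had 4.47 FPKM in HBC (interval 3.98 to 4.95), 50.5 in GBC (49.3 to 51.7) and 239 in mOSN (236 to 242). The 3 intervals lie apart, and each later stage is higher. These values rested on 345, 7529 and 21943 implied fragments, and Kirrel2 ranked 85th among all symbols in mOSN. Kirrel3 (chr9:34296316-34843892), its partner in the complementary pattern, had 0.732 FPKM in HBC (interval 0.559 to 0.906), 7.03 in GBC (6.61 to 7.45) and 24.8 in mOSN (23.8 to 25.8). It showed the same order at a lower level. On the FPKM scale Kirrel2 was 6.10 times Kirrel3 in HBC, 7.19 times in GBC and 9.64 times in mOSN.

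Cntn4 (chr6:105627739-106649299), a contactin held on the membrane by a lipid anchor, was the member with the highest level in mOSN. It had 2.44 FPKM in HBC (interval 2.22 to 2.66), 86.0 in GBC (84.1 to 87.9) and 271 in mOSN (268 to 274), where it ranked 72nd of all symbols. The intervals lie apart, and the order over the stages was that of Kirrel2. Cntn1 (chr15:91881596-92172398), which pairs with Cntnap1 at the paranode of myelinated axons, had 0.114 FPKM in HBC (interval 0.0735 to 0.154), 5.57 in GBC (5.17 to 5.97) and 2.88 in mOSN (2.57 to 3.18). Here GBC was the highest library. The level of Cntn4 relative to Cntn1 was 21.5 in HBC, 15.4 in GBC and 94.1 in mOSN.

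Ncam1 (chr9:49310251-49607174), the neural cell adhesion molecule of nearly all neurons, had 3.81 FPKM in HBC (interval 3.57 to 4.05), 143 in GBC (141 to 144) and 125 in mOSN (124 to 127). It was the highest of the 10 in GBC, where it ranked 133rd of all symbols, and the third in mOSN. Ncam2 (chr16:81200942-81624532), the zonal member, had 0.613 FPKM in HBC (interval 0.509 to 0.718), 19.9 in GBC (19.0 to 20.7) and 34.6 in mOSN (33.3 to 35.9). GBC and mOSN therefore differ in opposite directions for the 2 genes, though by less than 2-fold for each. The level of Ncam1 relative to Ncam2 was 6.21 in HBC, 7.19 in GBC and 3.62 in mOSN. With 1 conversion factor from fragments to FPKM per gene it was 3.47 in HBC, 7.45 in GBC and 3.40 in mOSN, so the HBC ratio moved by over 1.5 times and was nearer to that of mOSN.

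L1cam (chrX:71099119-71126173), the founding member of its family and an X-linked gene, had 5.24 FPKM in HBC (interval 4.90 to 5.59), 27.0 in GBC (26.2 to 27.7) and 20.8 in mOSN (20.1 to 21.6). Nfasc (chr1:134461267-134638374), which organises the axon initial segment, had 0.180 FPKM in HBC (interval 0.130 to 0.230) and 10.1 in GBC (9.75 to 10.4). Its mOSN value of 5.18 FPKM carried the status FAIL, with an interval of 0 to 9.71, and no fragment number can be read from it. Both genes were highest in GBC.
Nrcam (chr12:45429872-45702833), a relative of Nfasc found at nodes of Ranvier, had 7.79 FPKM in HBC (interval 7.49 to 8.08), 2.68 in GBC (2.44 to 2.91) and 1.26 in mOSN (1.09 to 1.44). It was lower at each later stage and was the highest of the 10 in HBC. Chl1 (chr6:103460870-103683029), the close homologue of L1, had 0.594 FPKM in HBC (interval 0.524 to 0.664), 0.181 in GBC (0.111 to 0.251) and 0.154 in mOSN (0.0913 to 0.217). The GBC and mOSN values rest on 27 and 24 implied fragments, and their intervals overlap.

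Neighbours in the order of levels were set apart by their intervals in GBC throughout. In mOSN the order was Cntn4, Kirrel2, Ncam1, Ncam2, Kirrel3, L1cam, Nfasc, Cntn1, Nrcam and Chl1, and the intervals of Nfasc and Cntn1 overlapped. In HBC it was Nrcam, L1cam, Kirrel2, Ncam1, Cntn4, Kirrel3, Ncam2, Chl1, Nfasc and Cntn1. There the intervals of neighbours overlapped between L1cam and Kirrel2, Kirrel2 and Ncam1, Kirrel3 and Ncam2, Ncam2 and Chl1, and Nfasc and Cntn1. The HBC order depended on the conversion. With 1 factor per gene, Ncam1 (4.77) and Cntn4 (4.49) stood above Kirrel2 (3.17), and Ncam2 (1.38) and Chl1 (0.784) above Kirrel3 (0.585).

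Progenitors and mature neurons were compared next, in mOSN and GBC libraries that share a kit. Kirrel2, Kirrel3 and Cntn4 were higher in mOSN, Ncam2 was higher by less than 2-fold, and the other 6 genes had lower FPKM in mOSN. The Kirrel2 level was 4.74 times that of GBC (95% counting interval 4.61 to 4.86, from the implied fragments), the Kirrel3 level 3.53 times (3.29 to 3.79) and the Cntn4 level 3.15 times (3.07 to 3.23). These intervals leave out the conversion of fragments to FPKM. For Kirrel2, 1 FPKM stood for 149 implied fragments in GBC and 91.8 in mOSN. Ratios were then taken as log2((FPKM + 1)/(FPKM + 1)), which understates the difference of low genes, and a gene was called at 2-fold. Only genes with at least 1 FPKM in either library were counted. By this rule 3 of the 9 members that reached 1 FPKM were higher in mOSN, against 22.4% of all 12551 genes counted, and 0 were lower, against 10.3%. A count of 3 in 9 is near that background.

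The log2 ratio of mOSN to GBC was 2.22 for Kirrel2, 1.68 for Kirrel3, 1.64 for Cntn4 and 0.77 for Ncam2. It was -0.19 for Ncam1, -0.36 for L1cam, -0.70 for Nrcam, -0.76 for Cntn1 and -0.84 for Nfasc, and -0.03 for Chl1, which was not counted because it stayed under 1 FPKM. The median of all genes counted was 0.24, and 4 of the 10 genes lay above it. Among all genes counted, Kirrel2 stood at the 96.4 percentile and Nfasc at the 13.1 percentile. All 4 L1 family genes were on the lower side, none by 2-fold on this scale. For 2 of them the side is weakly held. Chl1 rests on 27 implied fragments in GBC and 24 in mOSN, with overlapping intervals, and Nfasc on the FAIL value. Without the pseudocount, the Nrcam level in mOSN was 0.472 times that of GBC (0.402 to 0.554). The direction of each of the 10 genes was the same under each scaling tried, although Nfasc gave no value with 1 conversion factor per gene. With that factor the log2 ratio was 1.66 for Kirrel2, 1.24 for Kirrel3 and 1.91 for Cntn4, so Cntn4 stood above Kirrel2. The median of all genes was -0.18 with the libraries rescaled to a common sum, 0.16 with median-of-ratios scaling and -0.07 with 1 conversion factor per gene. The share of called genes that were higher in mOSN was 68.5% as deposited, 43.1% with the common sum and 51.4% with 1 conversion factor per gene.

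**Figure D2:**
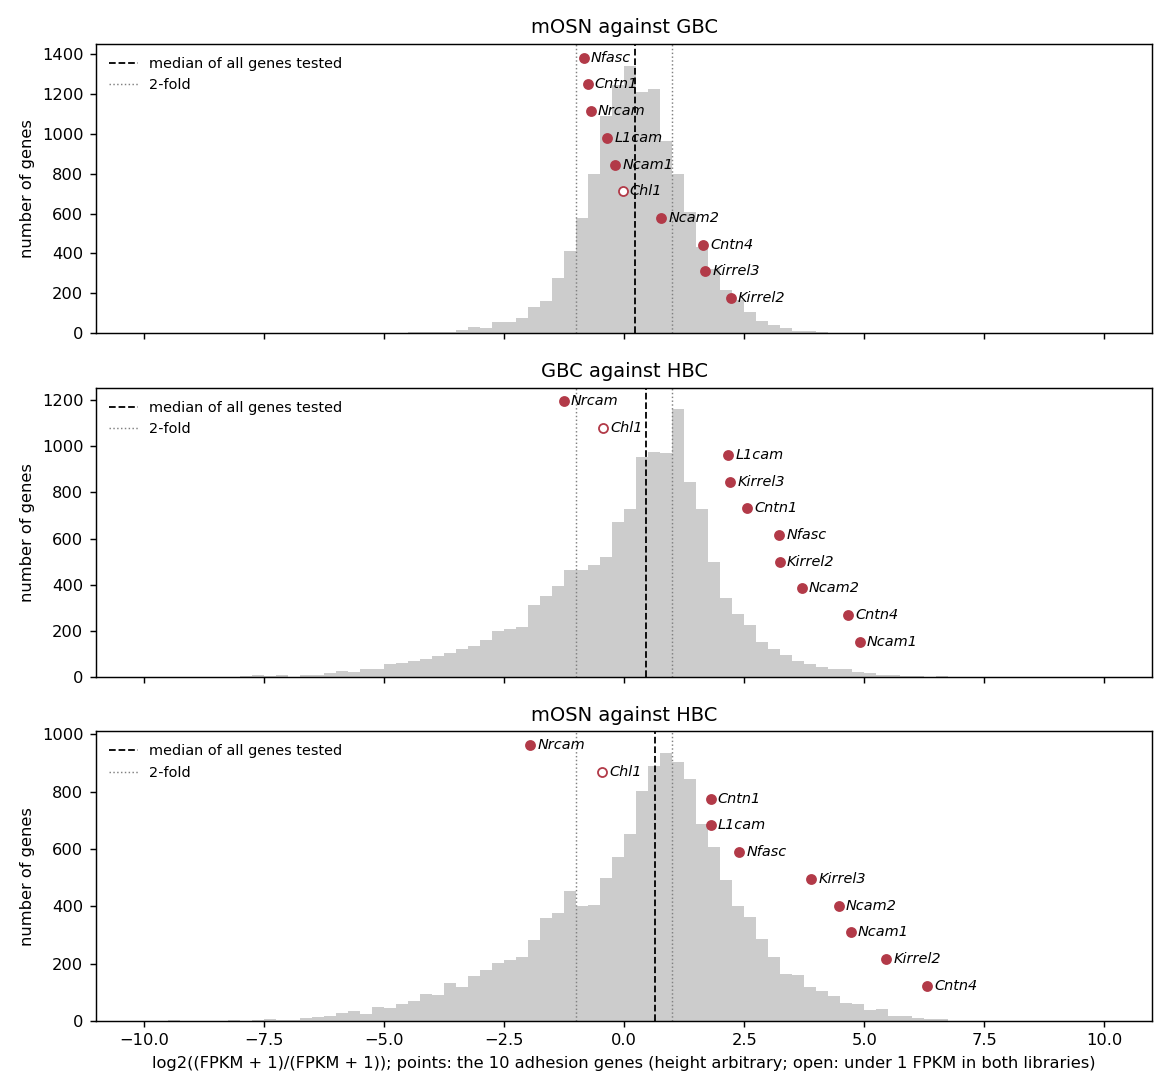
Number of genes (y) by log2((FPKM + 1)/(FPKM + 1)) (x) for mOSN against GBC, GBC against HBC and mOSN against HBC, with the 10 adhesion genes as points (open where under 1 FPKM in both libraries), the median of all genes dashed and 2-fold dotted. Between mOSN and GBC the points run from -0.84 for Nfasc to 2.22 for Kirrel2, and between GBC and HBC 8 of them lie beyond 2-fold on the side of GBC.

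Markers of mature neurons were present in the GBC library too. Of 11 mature neuron markers, 11 reached 1 FPKM in GBC, where their level was 5.35% to 172% of that in mOSN, with a median of 7.36% and Omp at 28.7%. Of 9 immature neuron markers, whose levels in GBC were 37.2% to 6439% of those in mOSN, 7 were at least 2-fold lower in mOSN. The immature markers summed to 582 FPKM in mOSN and 2541 in GBC, and those of globose basal cells and precursors to 7.95 and 477 FPKM. Kirrel2 in GBC was at 21.1% of its mOSN level, Kirrel3 at 28.3%, Cntn4 at 31.7% and Ncam2 at 57.4%. Ncam1 was at 114%, Chl1 at 117%, L1cam at 130%, Cntn1 at 194%, Nfasc at 195% and Nrcam at 212%. Every adhesion gene was above at least 9 of the 11 mature markers in this share, and Kirrel2 and Kirrel3 were the lowest, at 9 each. The share of all genes that do so was not taken. Of the 11 mature markers, 10 were at least 2-fold higher in mOSN than in GBC. Their median log2 ratio was 3.70, against 0.24 for all genes counted, so the count is not read as a trait of the adhesion genes. Sustentacular cell markers, of the supporting cells, summed to 160 FPKM in mOSN and 50.7 in GBC. The part of other cells in these differences was not tested.

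The GBC library was then set against the HBC library. In HBC, macrophage markers summed to 4425 FPKM and sustentacular markers to 1956, against 1236 for horizontal basal cell markers. The part of these cells in the comparison was not tested. Of the 9 members at 1 FPKM in either library, 8 were at least 2-fold higher in GBC, against 34.6% of 13736 genes counted, and 1 was lower (Nrcam), against 23.4%. Neuron markers were higher in GBC too, 9 of 9 immature ones with a median log2 ratio of 6.66 and a sum of 2541 FPKM in GBC against 25.2 in HBC, and 11 of 11 mature ones with a median of 2.56. The part of neurons in the GBC levels of the adhesion genes was not tested. The log2 ratio was 4.90 for Ncam1, 4.66 for Cntn4, 3.69 for Ncam2, 3.24 for Kirrel2, 3.23 for Nfasc, 2.56 for Cntn1, 2.21 for Kirrel3 and 2.16 for L1cam. The median of all genes counted was 0.46. Without the pseudocount, the GBC level of Ncam1 was 37.5 times that in HBC (counting interval 35.3 to 39.9) and that of Nfasc 56.02 times (42.5 to 73.8). Nrcam had a log2 ratio of -1.26, and its GBC level was 0.344 times that in HBC (0.313 to 0.377). Chl1, under 1 FPKM in both libraries, had a log2 ratio of -0.43.
The log2 ratios of genes near 0 FPKM in HBC depended on the pseudocount. Between pseudocounts of 5 and 0.1 FPKM they ran from 1.05 to 4.73 for Cntn1, from 1.54 to 5.18 for Nfasc, from 2.15 to 4.81 for Ncam2 and from 1.07 to 3.10 for Kirrel3. With 1 conversion factor per gene, 3 ratios moved by over 1.5 times, to 4.08 for Kirrel2, 3.78 for Cntn4 and -1.90 for Nrcam. Of all called genes, 59.7% were higher in GBC as deposited, against 45.6% after median-of-ratios scaling, under which the same 8 members were called.

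The span from HBC to mOSN shares its libraries with both steps above. Between mOSN and HBC, 8 of 9 members were higher in mOSN, against 40.4% of 14092 genes counted, and 1 was lower, against 23%. The median of all genes was 0.63. Cntn4 had the largest log2 ratio of the 10, at 6.30, and Kirrel2 followed at 5.46. Nrcam was at -1.96 and Chl1 at -0.47. L1cam had a log2 ratio of 1.81, the 78.1 percentile of all genes counted. With 1 conversion factor per gene the ratio was 5.68 for Cntn4, 3.83 for Ncam2 (4.46 as deposited) and -2.54 for Nrcam. Nfasc, at 2.39, rests on the FAIL value, and its intervals overlap, which leaves 7 members higher where intervals must lie apart. With a pseudocount of 5 FPKM the calls of Cntn1 (log2 ratio 0.62) and Nfasc (0.97) ended and 6 members were higher. At 4-fold those of Cntn1 and L1cam ended, which also leaves 6, and with a minimum of 5 FPKM that of Cntn1. Of all called genes, 63.7% were higher in mOSN from the deposited values, 51.01% on a common sum, 50.7% after median-of-ratios scaling and 52.3% with 1 conversion factor.

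Mature neuron markers were also detected in the HBC library, and the HBC levels of the adhesion genes were set beside them as shares of the mOSN level. The 11 mature neuron markers were in HBC at 0.429% to 4.82% of their mOSN level, with Omp the highest and Adcy3 next at 2.11%. Their median was 1.38%, against 3.17% for the immature neuron markers and 3.26% for the adhesion genes. Of the adhesion genes, 7 lay inside that range, from 0.901% for Cntn4 to 3.95% for Cntn1. Of these, Kirrel3 (2.95%), Ncam1 (3.04%), Nfasc (3.47%, on the FAIL value) and Cntn1 were above every mature marker except Omp. L1cam, at 25.2%, Chl1, at 385%, and Nrcam, at 616%, lay above the whole range. The share of all genes inside the range was not taken, and the part of neurons in these HBC levels was not tested. Beside these values, the horizontal basal cell markers summed to 1236 FPKM in HBC with 9 of 9 at 1 FPKM, the sustentacular markers to 1956 FPKM with 9 of 9, and the fibroblast and smooth muscle markers to 149 FPKM with 8 of 8. Ensheathing glia, which wrap olfactory axons, had markers summing to 24.2 FPKM in HBC, against 2.80 and 3.93 FPKM in GBC and mOSN. In HBC 3 of these 10 markers reached 1 FPKM, led by Ngfr at 11.6 FPKM, while the glial factors Sox10 and Foxd3 were at 0.559 and 0.00632 FPKM. Endothelial markers summed to 10.9 FPKM in HBC, with 4 of 6 at 1 FPKM. The macrophage sum given above was the highest of these marker sums in HBC. The part of these cells in the HBC levels of L1cam, Chl1 and Nrcam was not tested.

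**Figure D3:**
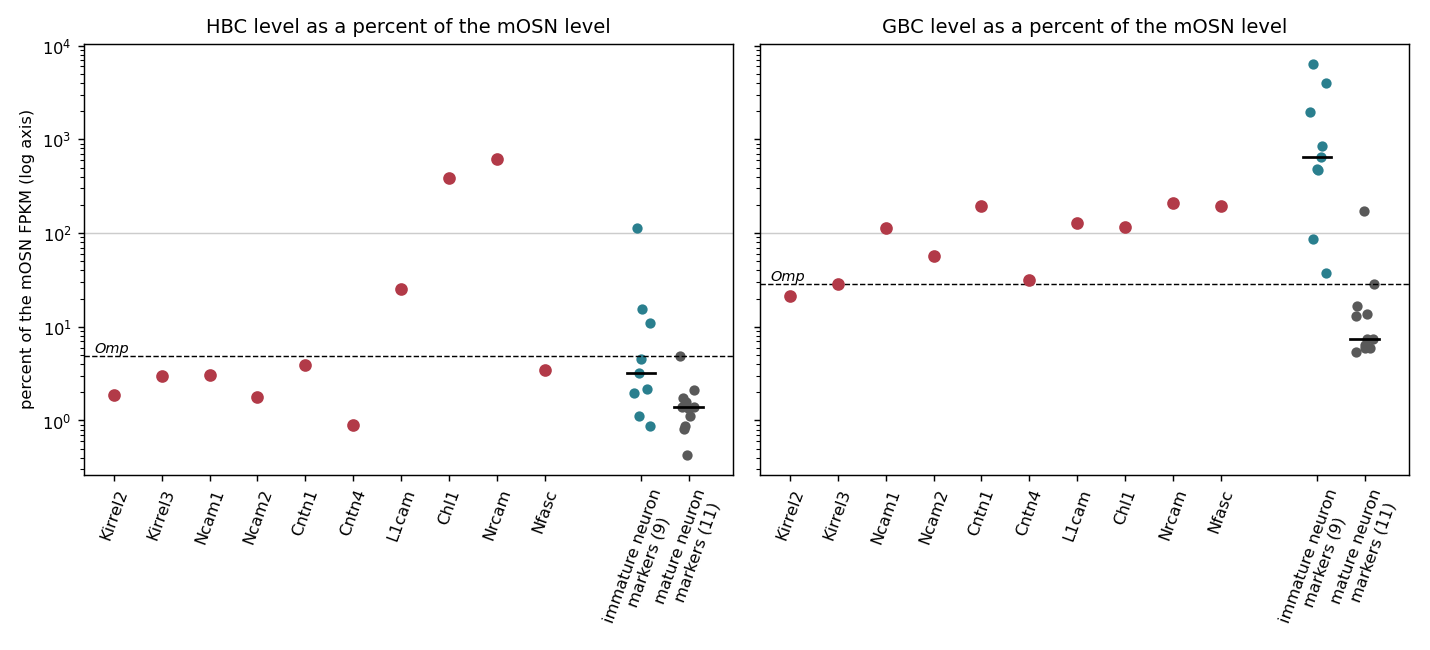
HBC level (left) and GBC level (right) as a percent of the mOSN FPKM, on a log axis (y), for the 10 adhesion genes and for 9 immature and 11 mature neuron markers (1 point per gene, black bars at the medians, dashed line at Omp). In HBC 7 adhesion genes fall within the 0.429% to 4.82% spanned by the mature markers, and L1cam, Chl1 and Nrcam lie above it. Of the 7, Kirrel3, Ncam1, Cntn1 and Nfasc lie above every mature marker except Omp.

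The genes most like each member were sought by the distance over the 3 log2(FPKM + 1) values among 18174 symbols, leaving out predicted genes and chemoreceptors. With 3 libraries many genes can look alike, so the number within a distance of 0.5 is given too. Kirrel2 had 5 such genes, of which Eef1a2, a translation elongation factor of neurons and muscle, was nearest, with 3.82 FPKM in HBC, 52.2 FPKM in GBC and 217 FPKM in mOSN. Carns1 and Acsl6 came next. Cntn4 had 2, Rtp2, a chaperone of odorant receptors (2.05, 97.2 and 299 FPKM in HBC, GBC and mOSN), and Stmn4, a tubulin-binding protein (2.01, 85.3 and 230 FPKM in the same order). Clgn, further off at a distance of 0.65, was the third nearest.
Ncam1 also had 2 within that distance, Stmn3 and Mgst3, followed by the lineage factor Lhx2 (2.50, 170 and 110 FPKM in HBC, GBC and mOSN) at a distance of 0.56. Kirrel3 had 28, led by Ric3, Eml5 and Efha2. Ncam2 had 26, led by Fam171b and Pnmal1. Cntn1 had 29 (Asxl3, Ccdc85a and Zfp2 nearest), L1cam 67 (Tfdp1, Znrf1 and Prmt2), Nfasc 17 (Grtp1, Gprin1 and Wasf1) and Nrcam 34. The gene nearest to Nrcam was another immunoglobulin adhesion gene, Alcam, with 8.59 FPKM in HBC, 2.97 FPKM in GBC and 1.24 FPKM in mOSN, followed by Nde1 and Triobp. Chl1 was too low for this search.

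Other neural immunoglobulin adhesion genes were compared from a list of 30, of which 29 matched. Of 17 that reached 1 FPKM in mOSN or GBC, 8 exceeded 2-fold towards mOSN (22.4% of all genes did) and 3 towards GBC (10.3% of all genes), and their median log2 ratio was 0.72, against 0.24 for all genes. Nphs1, nephrin, the partner of Kirrel proteins in the kidney filter, had 5.59 FPKM in mOSN, against 0.975 in GBC. Nptn, neuroplastin, had 114 FPKM in mOSN, against 17.2 in GBC, and Dscam, a self-recognition molecule of neurites, 15.3 and 5.66 FPKM in the same order. Cntn2, a contactin of growing axons, was lower, with 0.156 FPKM in mOSN and 6.74 in GBC. The contactins therefore split, with Cntn4 higher and Cntn2 lower in mOSN by over 2-fold, while Cntn3, Cntn5 and Cntn6 were under 1 FPKM in all 3 libraries. The other 2 that were lower in mOSN were Cadm4 and Dcc. Of 16 counted between GBC and HBC, 8 were higher in GBC and 4 lower (Thy1, Sdk2, Alcam and Mcam), against 34.6% and 23.4% of all genes, with a median of 1.21 against 0.46. Cadm4, Dcc, Sdk2 and Mcam lie outside the naming rule and were named after their values were seen, as were Sema3a, Plxnc1, Fgfr1, Ptprz1 and St8sia2 among the lists that follow. Cadm3, a synaptic adhesion molecule, had 36.0 FPKM in GBC and 0.815 in HBC, and Thy1, carried by lymphocytes and fibroblasts as well as neurons, 0.121 in GBC and 15.7 in HBC.

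Genes known with Kirrel2 and Kirrel3 to sort olfactory axons by activity or zone were next. Of 14 counted from this list of 15, 8 were at least 2-fold higher in mOSN than in GBC and 1, the repulsive ligand Sema3a, was lower (1.48 FPKM in mOSN, 6.23 in GBC). Of all genes, 22.4% were higher and 10.3% lower. The median log2 ratio of the list was 1.03, against 0.24 for all genes. Epha5, an ephrin receptor placed on axons by activity, had 14.1 FPKM in mOSN, against 1.47 in GBC, and its ligand Efna5 had 42.3 and 12.0 FPKM. Sema7a, a semaphorin of glomerular synapses, had 111 FPKM in mOSN and 25.7 in GBC. Nqo1, an enzyme that marks the dorsal zone, had 187 FPKM in mOSN and 60.0 in GBC. It thus stood at 32.1% of its mOSN level in GBC, and Ncam2, the ventral marker, at 57.4%. Between GBC and HBC, 11 of 15 were higher in GBC and 1, the semaphorin receptor Plxnc1, was lower (34.6% and 23.4% of all genes), and the median was 1.77, against 0.46. Among those higher were Efna3 at 47.5 against 1.76 FPKM and Robo2, a receptor of the zonal Slit signal, at 27.9 against 0.741 FPKM.

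Among the proteins that bind the members, 9 of 20 counted were at least 2-fold higher in mOSN than in GBC and 2 were lower, where 22.4% and 10.3% of all genes were, and the median log2 ratio was 0.87, against 0.24 for all genes. Dlg1, a PDZ scaffold, had 47.9 FPKM in mOSN and 8.73 in GBC. Aplp2, of the amyloid precursor family, to which contactins bind, had 494 FPKM in mOSN, against 149 in GBC. Fyn, the kinase that acts behind Ncam1, had 4.55 FPKM in mOSN, against 14.9 in GBC, and Ezr, ezrin, a linker of L1cam to actin, 2.52 and 14.4 FPKM. Of 19 counted between GBC and HBC, 8 were higher in GBC and 3 lower (Ezr, Fgfr1 and Ptprz1), where 34.6% and 23.4% of all genes were, with a median of 0.50 against 0.46. The shares between GBC and HBC, and the share lower in mOSN, are near those of all genes. Ank2, an ankyrin to which the L1 family tails bind, had 58.3 FPKM in GBC and 2.49 in HBC, and Aplp1 210.1 and 7.13 FPKM.

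Polysialic acid is a sugar polymer that loosens Ncam1 adhesion, and proteases such as Bace1 and Adam10 release the outer part of L1 family proteins. Of 7 genes counted from this list of 9, 0 were at least 2-fold higher in mOSN than in GBC and 2 were lower, where 22.4% and 10.3% of all genes were. The median log2 ratio was 0.09, against 0.24. Nans, which makes sialic acid, had 3.84 FPKM in mOSN and 11.3 in GBC. St8sia2, a polysialyltransferase, was the other one that was lower, with 0.547 FPKM in mOSN and 3.37 in GBC. Bace1 had 39.8 FPKM in mOSN, against 23.6 in GBC, with Cmas at 10.02 and 9.32 and Adam10 at 9.27 and 8.90. Between GBC and HBC, 2 of 8 were higher in GBC (Bace1 and St8sia2) and 3 lower (St8sia4, Adam17 and Adam10), where 34.6% and 23.4% of all genes were, with a median of -0.24 against 0.46. St8sia4, the second polysialyltransferase, had 0.563 FPKM in GBC and 9.34 in HBC, and Adam17 3.20 and 19.5 FPKM.

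**Figure D4:**
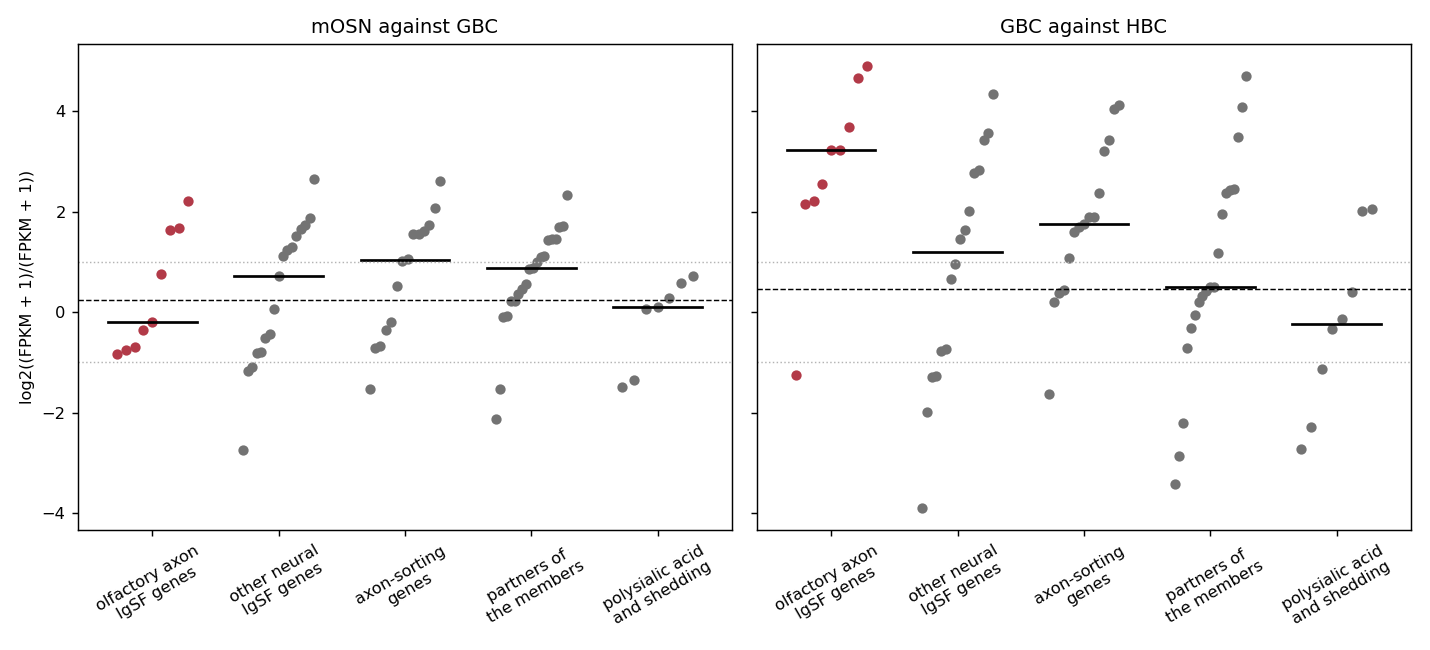
log2((FPKM + 1)/(FPKM + 1)) (y) for mOSN against GBC (left) and GBC against HBC (right), 1 point per gene with at least 1 FPKM in either library, in the 10 adhesion genes (red) and 4 related lists, with black bars at list medians, the median of all genes dashed and 2-fold dotted. Between mOSN and GBC the adhesion genes have a median of -0.19 and fall on both sides, and between GBC and HBC their median is 3.23, with Nrcam alone below 0 among those shown.

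The members' ratios under other settings are drawn in the plot of alternatives.

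**Figure D5:**
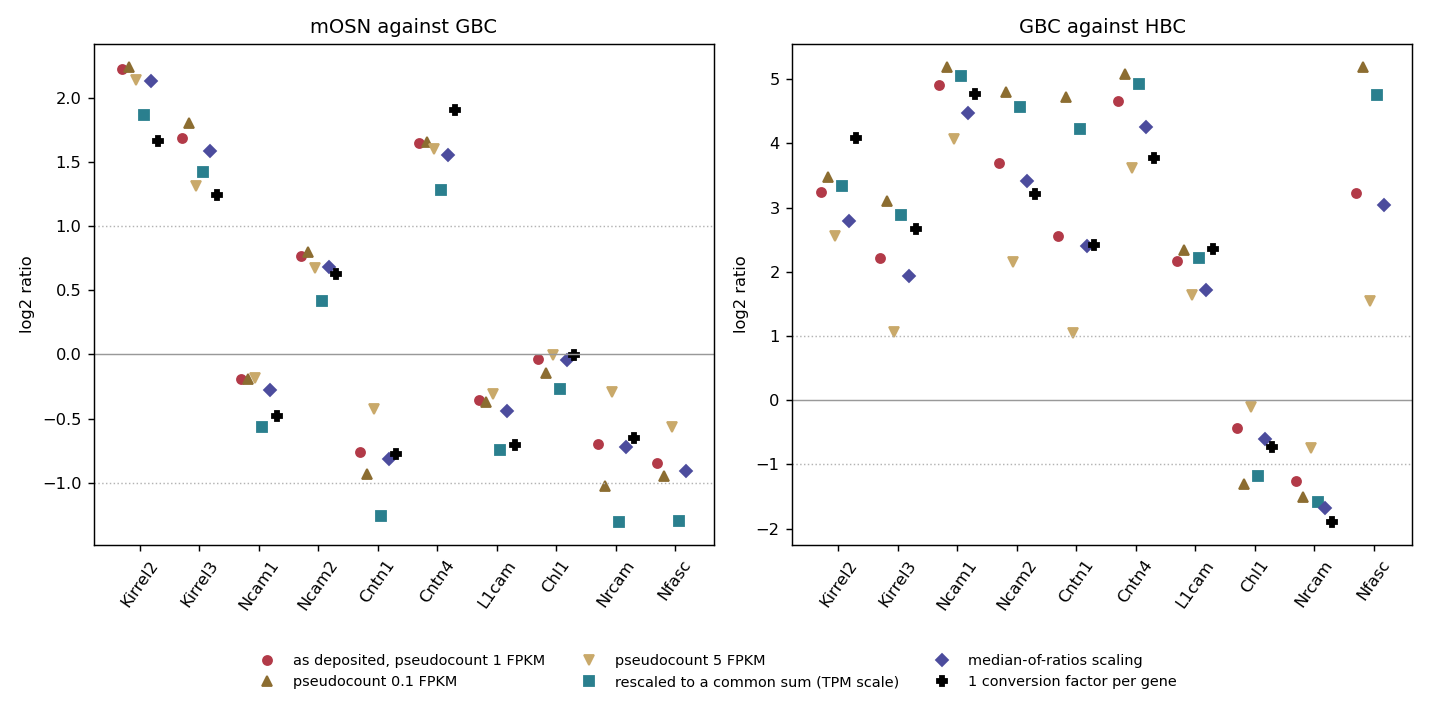
log2 ratio (y) of each adhesion gene (x) for mOSN against GBC (left) and GBC against HBC (right) as deposited and with other pseudocounts, scalings or 1 conversion factor per gene (symbols). Every gene with a value keeps its side of 0 in each setting shown, though a change of pseudocount alone cannot move it across. Cntn1, Nrcam and Nfasc pass 2-fold between mOSN and GBC only in some settings.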

How the data were processed

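Cells of 3 sorted populations gave 1 poly-A RNA library each, grouped by title. The authors deposited FPKM per gene with the 2 ends of an interval and a quality status (per the file headers). Bowtie, TopHat, Cufflinks and the mm9 build are named in the submitters' processing notes. Versions, options and annotation: not given in the sources used here. A table held 22345 rows and 21909 symbols. Rows of 1 symbol were added up. FAIL marked 8 HBC, 19 GBC and 30 mOSN rows, of the members only Nfasc in mOSN. Start coordinates were raised by 1. Implied fragments were n in half-width = 2 × FPKM/√n. Their counting intervals (95%) treat reads amplified by PCR as independent molecules, so they cover counting error only.

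Ratios were log2((FPKM + 1)/(FPKM + 1)), with a call at 2-fold and at least 1 FPKM in either library. With 1 library per population there was no test. The members, the 14 gene lists (169 of 170 symbols matched, 2 through synonyms) and the naming rule were chosen with earlier results of these data known. From each related list the rule named up to 4 genes with the largest mOSN against GBC ratio and up to 2 with the largest GBC against HBC ratio, at 5 FPKM or more, and for each member the 3 nearest genes, of which 1 is not reported here. Promoter sequences are RefSeq's, of GRCm38.p6, matched by symbol, and no coordinate was converted between builds. Python 3.11.15, numpy 2.4.6, pandas 2.3.3 and matplotlib 3.10.9 were used.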

Additional observations from a re-analysis of the deposited data

How the results depend on the processing

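No paired analysis was possible because each population had 1 library. The 30 log2 ratios of the members kept their sign under the other scalings and with 1 conversion factor per gene, where these gave a value. Other pseudocounts and row choices were tried too, but they could not change a sign. A pseudocount leaves the sign as it is, and each member had 1 row per library. Of 66 counts of called members under alternatives, 58 stayed within 1.5 times the count given. Some of these were fixed in advance. Taking the highest row per symbol repeats the counts given, since each member had 1 row. Dropping the minimum of 1 FPKM cannot add a call, since values under 1 FPKM differ by less than 2-fold with the pseudocount of 1 FPKM. The number lower in mOSN than in GBC, 0 as given, was 1 with a pseudocount of 0.1 FPKM (Nrcam) and 3 with a common sum (Cntn1, Nrcam and Nfasc). The number higher in mOSN than in GBC was 1 at 4-fold (Kirrel2, on the deposited values). With 1 conversion factor per gene the log2 ratio of Kirrel2 was 1.66, which is under 4-fold. The number lower in GBC than in HBC, 1 as given, was 0 with a pseudocount of 5 FPKM, 0 at 4-fold and 2 with a common sum (Chl1 and Nrcam). The number lower in mOSN than in HBC was 0 at 4-fold and 2 with a common sum (Chl1 and Nrcam). The cause of these moves was not tested. No value could be given for Nfasc in mOSN with 1 conversion factor or without FAIL rows. Depth limits Chl1 most, with 24 implied fragments in mOSN.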
